A study of Mus musculus with 4 samples.

Results

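The genes described here encode the nuclear subunits of oxidative phosphorylation, the respiratory complexes I to IV and the ATP synthase (complex V) of the inner mitochondrial membrane. Members were taken by their gene name on the array, as Nduf genes of the A, B, C, S and V series, Sdha to Sdhd, Uqcr genes, Cox4 to Cox8 genes and Atp5 genes. The array carries 83 such names among 29924 gene names. Of these, 82 were well above background on all 4 arrays in both groups and were tested together with all 22455 genes that passed the background filter. Complex I accounts for 36, complex II for 4, complex III for 8, complex IV for 17 and complex V for 17 of them. Atp5s and Atp5sl match the name rule, but the RefSeq table lists them under the current names Dmac2l and Dmac2. They are not subunits of the enzyme, but are counted here among the 17 genes of complex V and the 82 genes. Ndufa4 was named as a complex I gene and counted there, although its protein has since been assigned to complex IV. Cox8c, a testis isoform of a complex IV subunit, was well above background on 0 of 4 arrays in either group and was not tested.

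Complexes I and II pass electrons from NADH and succinate to ubiquinone, complex III passes them on to cytochrome c, and complex IV reduces oxygen. Complexes I, III and IV pump protons, and complex V uses the gradient to make ATP. Most subunits are encoded in the nucleus and are present in nearly all cells, whereas some complex IV subunits have isoforms that are typical of muscle, lung or testis.

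Both groups were ureters of wildtype NMRI mouse embryos at E12.5, cultured for 18 h on membranes in a defined medium that contained pyruvate. One group received 10 µM IWP-2, an inhibitor of Porcupine, the enzyme that adds the lipid which WNT ligands need for secretion. The control group received the solvent DMSO. Each of the 4 two-colour arrays compared 1 pool of treated ureters with 1 pool of control ureters, with the treated RNA in the red channel on arrays 1 and 3 and in the green channel on arrays 2 and 4. The sex of the embryos was not determined, the inhibitor reaches all cell types of the explant, and nothing in the labels says whether the pools came from separate litters, so that the p-values measure the spread between these 4 arrays.

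The comparison asks how far the RNA of the respiratory chain changes when WNT secretion is blocked. The median raw intensity of gene spots was 368 to 711 in the control and 385 to 694 in the treated channels, over local backgrounds of 28 to 77, and 0 spots were saturated. The WNT targets Sp5, Nkd1, Axin2 and Lef1 all fell, with mean log2 ratios of IWP-2 over control from -2.72 to -1.47. Several of the cell type marker lists moved as well. All 7 epithelial markers were higher (median log2 ratio 0.30), as were 4 of 6 endothelial, 4 of 6 blood and 4 of 6 macrophage markers, while 6 of 6 smooth muscle markers (median -0.59) and 7 of 8 proliferation genes (median -0.30) were lower. Of 6 mesenchymal markers 1 was lower and 1 higher (median 0.02), of 6 neural crest markers 2 were higher, and of 5 nephron progenitor markers 1 was lower and 4 were higher. Of all genes tested, 15.0% were lower and 18.1% higher, 33.1% in all. The mesenchymal and the neural crest list, at 33.3% each, lay near that share. In whole explants, fewer cells of a type and less RNA per cell cannot be told apart, and the part of these shifts in the values below was not tested.

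The RNA of the oxidative phosphorylation subunits moved little. At an adjusted p of 0.05 (limma, Benjamini-Hochberg over all genes tested), IWP-2 lowered 3 of the 82 genes and raised 5, and 74 did not pass. This is 9.76% of the subunit genes, where 33.1% of all genes tested passed, 15.0% lower and 18.1% higher. Among the 11227 genes with the brighter signals, 32.2% passed. That set does not match the subunit genes in brightness, since 62 of the 82 lay in the brightest 10% of genes tested (median percentile 93.3). No comparison at equal brightness was made. The genes that fell were Ndufa11 and Ndufs8 of complex I and Cox4i2 of complex IV, and those that rose were Ndufa6 of complex I, Uqcrh and Uqcrfs1 of complex III, and Cox6a1 and Cox8b of complex IV. The unadjusted p was under 0.05 for 15 of the 82 genes and for 9876 of all 22455.

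The sizes were small in both directions. The mean log2 ratios of the 82 genes ran from -0.21 (Ndufa11) to 0.32 (Cox8b) with a median of 0.01, and with 36 genes below and 46 above 0. The median over all genes tested was 0.00. The median without regard to sign was 0.049 for the subunit genes and 0.095 for all genes. By array, the median of the 82 genes was -0.01, 0.05, -0.01 and 0.00 on arrays 1 to 4, so that its sign was not the same on every array. Centring each array on its median in place of loess moved it to -0.05 (all genes -0.01), and leaving out array 2 moved it to -0.01.

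The narrow range was not accompanied by a larger error. The standard error of the log2 ratio in the fit had a median of 0.041 over the subunit genes and 0.044 over all genes. The mean ratio stayed within 1.2-fold for 81 of the 82 genes and for 84.3% of all genes, with Cox8b as the exception. The 95% interval of the ratio lay within 1.2-fold in either direction for 75 genes and within 1.5-fold for all 82. Its outermost bounds were -0.31 for Ndufa11 and 0.44 for Cox8b on the log2 scale. Of the 82 genes, 6 were below 0 on all 4 arrays and 11 above 0 on all 4, compared with 21.0% and 22.3% of all genes.

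**Figure D1:**
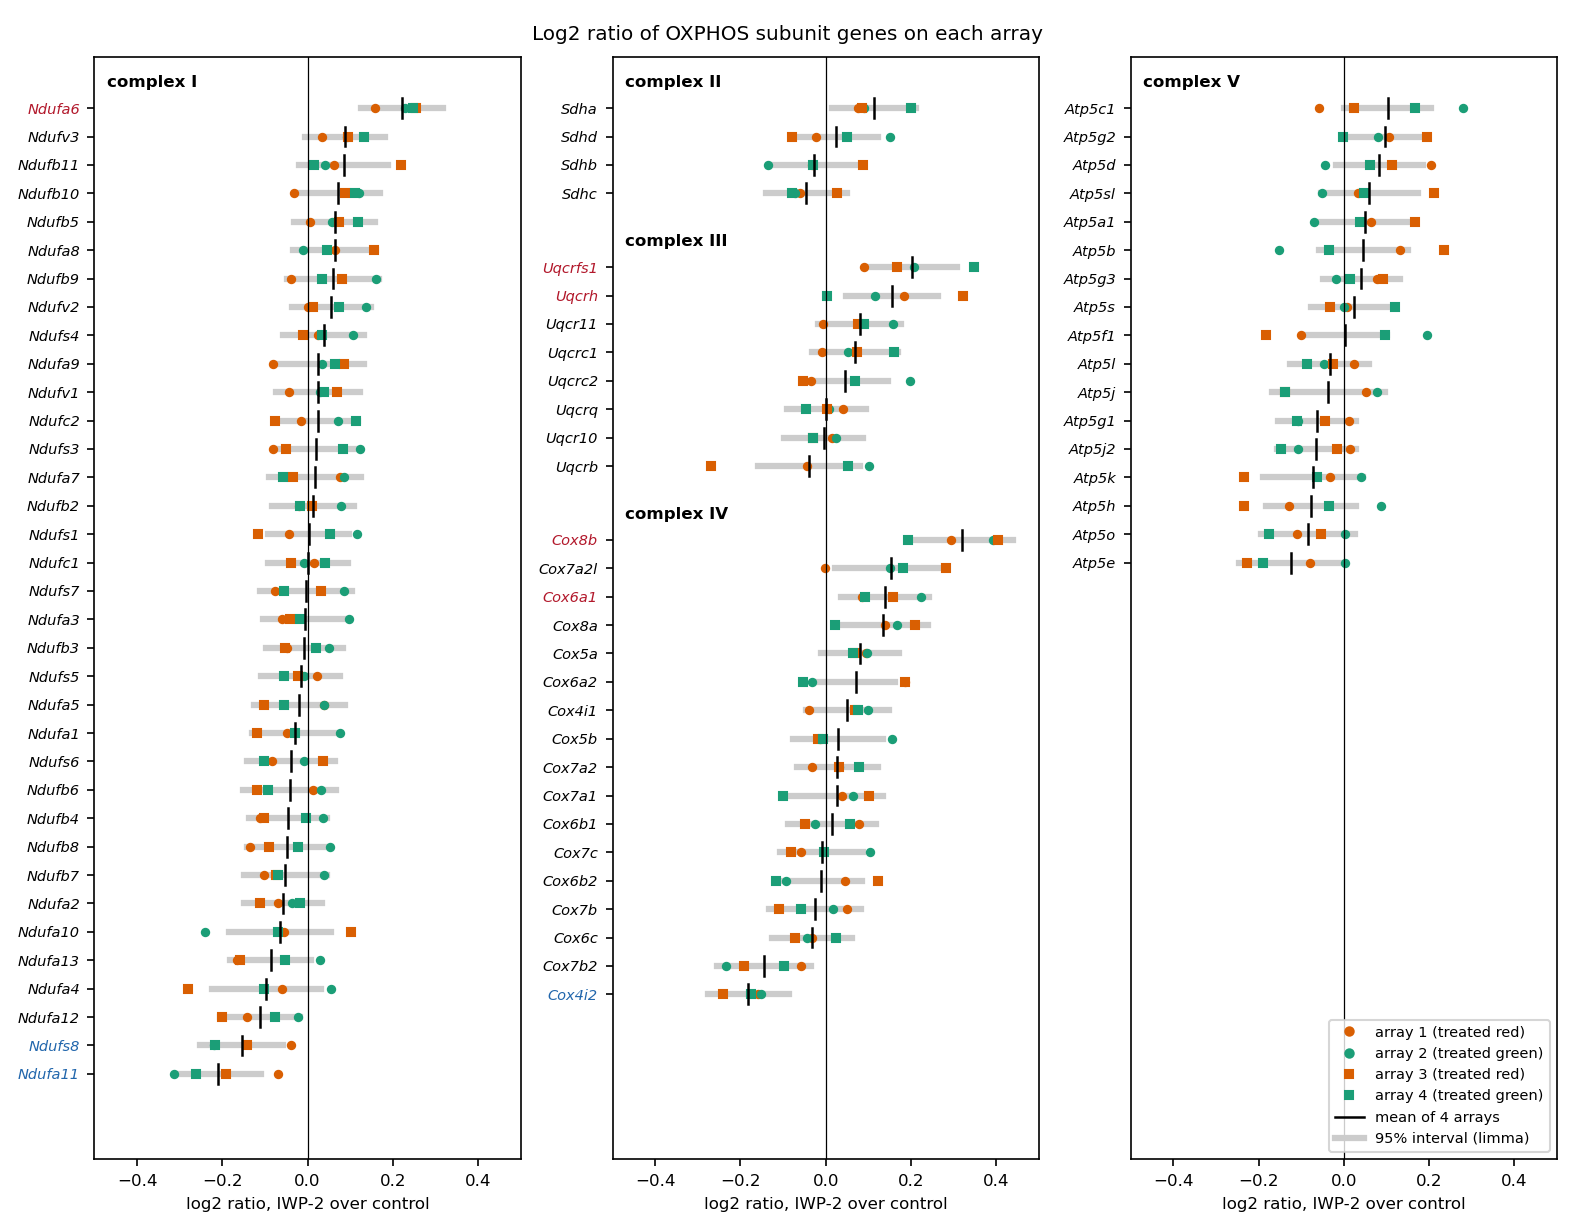
Log2 ratio of IWP-2 over control (x axis) for 81 of the 82 subunit genes (rows, sorted within each complex). Points are the 4 arrays, coloured by dye order, black ticks the means and grey bars the 95% limma intervals. Gene names in blue (lower) and red (higher) passed the adjusted p of 0.05. Some of the other rows, such as Ndufa12 and Sdha, also have all 4 arrays on the same side of 0.

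In complex I, 2 genes fell and 1 rose among 36, and the median log2 ratio was -0.00, with 18 genes on either side of 0. Ndufa11, an accessory subunit of the membrane arm, had log2 ratios of -0.07, -0.31, -0.19 and -0.26 on arrays 1 to 4. All 4 were below 0, and the control signals (17218 to 18693) did not overlap the treated ones (14800 to 16397). The mean was -0.21 ± 0.11 (SD, n = 4), 1.16-fold lower, with a limma adjusted p of 0.011. It passed in 15 of 16 alternative settings and missed the threshold only without array 3, at an adjusted p of 0.056. Ndufa6, an accessory subunit of the LYR family, had log2 ratios of 0.16, 0.23, 0.25 and 0.25. Control signals of 21156 to 22714 lay below all treated signals of 23608 to 26792. The mean was 0.22 ± 0.04, with a limma adjusted p of 0.0079, and it passed in 15 of 16 settings.

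The 7 nuclear genes of the core of complex I carry the flavin, the iron-sulfur clusters and the quinone site. Ndufs8, an iron-sulfur subunit next to the quinone site, had log2 ratios of -0.04, -0.22, -0.14 and -0.22. The treated signals (14009 to 15427) lay below the control signals (15522 to 17639), although the gap was narrow. The mean was -0.15 ± 0.09 (SD, n = 4) with a limma adjusted p of 0.028, and the call was lost in 5 of 16 settings, among them those without array 2, 3 or 4 (adjusted p of 0.086, 0.13 and 0.087). None of the other core genes passed. Ndufs1 had a mean log2 ratio of 0.00 ± 0.10, Ndufs3 of 0.02 ± 0.10, Ndufs7 of -0.00 ± 0.08, Ndufv1 of 0.02 ± 0.05 and Ndufv2 of 0.06 ± 0.06. Among the 29 accessory genes 1 was lower and 1 higher, with a median of -0.01. The means of these 5 genes thus lay between -0.00 and 0.06.

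Complex II, which is also an enzyme of the citric acid cycle, had 0 of 4 genes past the threshold, and 1 of the 4 had an unadjusted limma p under 0.05. That gene was Sdha, the flavoprotein subunit, with log2 ratios of 0.08, 0.09, 0.09 and 0.20, a mean of 0.11 ± 0.06 and an adjusted p of 0.076. The ratios were above 0 on all 4 arrays, while its control and treated signals overlapped. Sdhb, the iron-sulfur subunit, had a mean of -0.03 ± 0.09, and the membrane anchors Sdhc and Sdhd had means of -0.05 ± 0.05 and 0.02 ± 0.10. Further probes of Sdhb and Sdhc lay lower, at -0.09 ± 0.09 and -0.17 ± 0.16. Neither passed (limma adjusted p of 0.13 and 0.074 over all probes).

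In complex III, 2 of 8 genes rose and 0 fell, where 18.1% of all genes were higher and 33.1% passed in either direction, with a median log2 ratio of 0.06. Uqcrfs1, the Rieske iron-sulfur protein, had log2 ratios of 0.09, 0.21, 0.17 and 0.35. Control signals of 25052 to 26342 lay below all treated signals of 27134 to 33511. The mean was 0.20 ± 0.11 (SD, n = 4), 1.15-fold higher, with a limma adjusted p of 0.015, and it passed in 11 of 16 settings. It missed the threshold without array 3 (adjusted p of 0.067) and without array 4 (0.064).

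Uqcrh, the hinge protein that contacts cytochrome c1, had log2 ratios of 0.18, 0.11, 0.32 and 0.00. The treated signals (108600 to 122029) lay just above the control signals (95835 to 108385), and array 4 showed nearly no difference. The mean was 0.16 ± 0.13 with a limma adjusted p of 0.040. The call was kept in only 7 of 16 settings, and was lost without array 2, 3 or 4 (adjusted p of 0.16, 0.17 and 0.054). Under median centring its mean was 0.07. Another probe for Uqcrh had a mean of 0.14 ± 0.08. The lowest gene of the complex was Uqcrb, the ubiquinone-binding protein, at -0.04 ± 0.16, where array 3 (-0.27) stood below the other arrays (-0.04 to 0.10).

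In complex IV, 1 gene fell and 2 rose among 17, with a median of 0.03. Both genes with the largest change in this complex encode isoforms with a restricted distribution. Cox8b, the isoform of subunit 8 known from heart and skeletal muscle, had log2 ratios of 0.29, 0.39, 0.40 and 0.19. The treated signal was above the control signal on each array, but the 4 treated signals (188 to 260) overlapped the 4 control signals (143 to 198). The mean was 0.32 ± 0.10 (SD, n = 4), 1.25-fold higher, with a limma adjusted p of 0.0044, and 13 of 15 settings kept the call. With the processed signals of the scanner software its mean was 0.53 (adjusted p of 0.013) and with the series table it was 0.50 (0.084). Both Cox8b and Cox4i2 gave weak signals, so that the offset of 50 added to each signal draws their ratios towards 0. Cox4i2, the isoform of subunit 4 known from lung and from low oxygen, had log2 ratios of -0.16, -0.15, -0.24 and -0.18. Its treated signals (466 to 499) lay below all control signals (521 to 556). The mean was -0.18 ± 0.04 with a limma adjusted p of 0.015, and 12 of 15 settings kept the call, those without array 3 (adjusted p of 0.072) and without array 4 (0.054) being among the exceptions.

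Cox6a1, the form of subunit 6a used outside striated muscle, was the other gene that rose. It had log2 ratios of 0.08, 0.22, 0.16 and 0.09, with control signals of 91155 to 94562 below treated signals of 97941 to 106512. The mean was 0.14 ± 0.06 with a limma adjusted p of 0.049, and the call was kept in only 4 of 16 settings, none of them leaving out an array (adjusted p of 0.058 to 0.21). Under median centring its mean was 0.05.

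**Figure D2:**
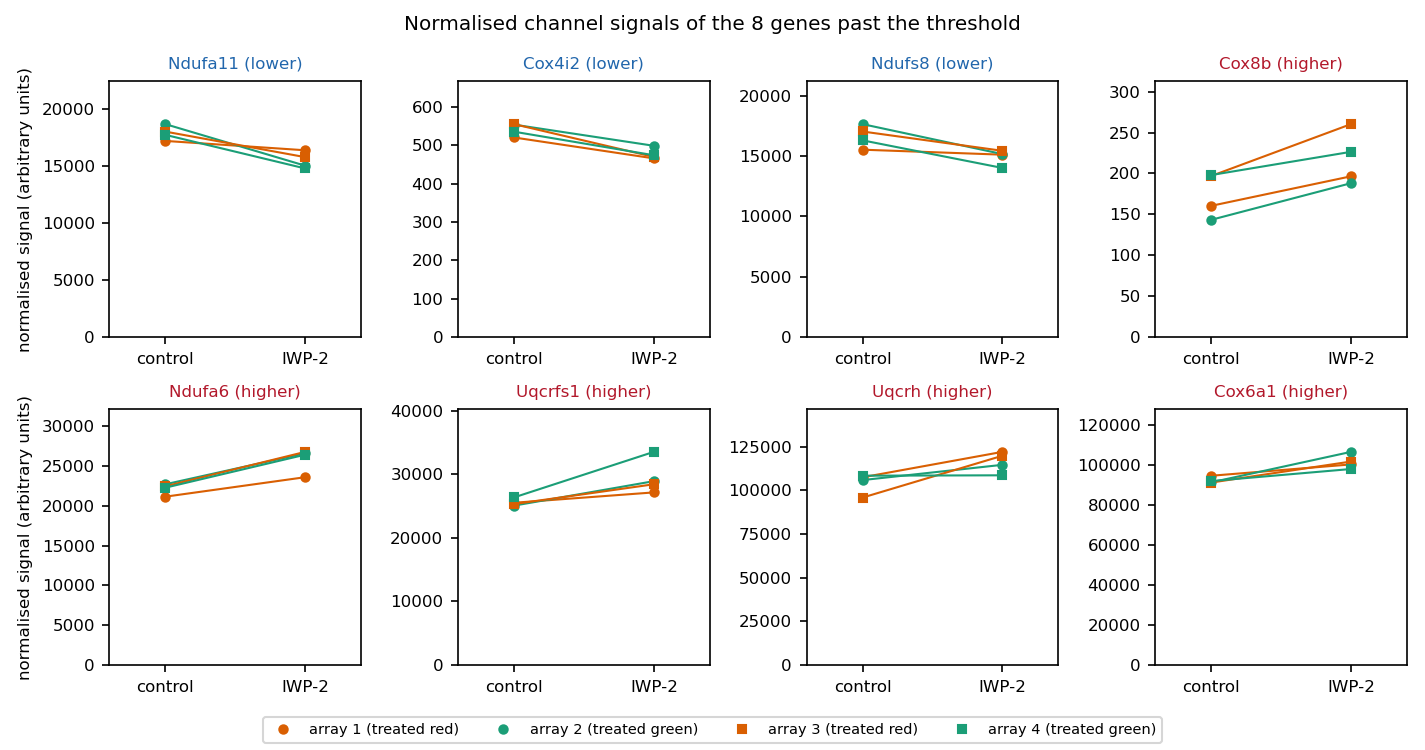
Normalised signal (y axis, arbitrary units, starting at 0, a separate scale for each gene) in the control and the IWP-2 channel of each array for the 8 genes past the adjusted p of 0.05. Lines join the channels of 1 array. The slopes were shallow for all 8 genes, the steepest being the 1.25-fold rise of Cox8b.

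The partner isoforms did not mirror these changes in a common way. Cox8a, the widespread form of subunit 8, had a mean of 0.13 ± 0.08 (limma adjusted p of 0.058), in the same direction as Cox8b. Cox4i1, the widespread form of subunit 4, was at 0.05 ± 0.06, on the other side of 0 from Cox4i2. The muscle forms Cox6a2 and Cox7a1 were at 0.07 ± 0.13 and 0.03 ± 0.09, beside 0.03 ± 0.04 for Cox7a2. Of the testis forms, Cox6b2 was at -0.01 ± 0.11, beside 0.01 ± 0.06 for Cox6b1, and Cox7b2 was at -0.15 ± 0.08 (adjusted p of 0.053), beside -0.02 ± 0.07 for Cox7b. The probes of Cox6a2, Cox7a1 and Cox7b2 were also too weak to be among the brighter genes, and their values varied with the setting. Cox7b2 passed in 5 of 15 alternative settings, with values from -0.39 to 0. Cox6a2 passed in 1 of 15 (0.03 to 0.20) and Cox7a1 in 0 of 15 (-0.01 to 0.07). The difference between the isoforms of a pair was not tested. Of the 6 restricted isoforms measured 1 fell and 1 rose, a share of 33.3% that lay near the 33.1% of all genes. Of the 11 other complex IV genes 0 fell and 1 rose (9.09%).

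In complex V, 0 of 17 genes passed in either direction, and 2 had an unadjusted limma p under 0.05. These were Atp5c1, the gamma subunit of the rotor, with the highest mean (0.10 ± 0.15, adjusted p of 0.11) and Atp5e, the epsilon subunit, with the lowest (-0.12 ± 0.11, adjusted p of 0.11). Atp5c1 was below 0 on array 1 (-0.06) and above 0 on the other 3 arrays (0.02 to 0.28), and Atp5e was just above 0 on array 2 (0.00) and below 0 on the others (-0.23 to -0.08). The catalytic beta subunit Atp5b had log2 ratios of 0.13, -0.15, 0.23 and -0.03, which followed the dye order, and a mean of 0.05 ± 0.17. Atp5a1, the alpha subunit, was at 0.05 ± 0.10. Atp5g1, Atp5g2 and Atp5g3, whose products are cut to the same mature subunit c of the proton-driven ring, were at -0.06 ± 0.06, 0.10 ± 0.08 and 0.04 ± 0.05. The 5 genes of the F1 head had a median of 0.05 and the 10 genes of the membrane sector and stalk one of -0.05, a difference that was not tested. None of the 17 genes had the same direction on all 4 arrays.

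The differences between the complexes were not tested, and the medians were close. By array, the medians of complex I were -0.04, 0.05, -0.04 and -0.01 on arrays 1 to 4, and those of complex III were 0.00, 0.11, 0.04 and 0.06. Those of complex IV were 0.04, 0.06, 0.07 and 0.02, and those of complex V were 0.01, 0.00, -0.03 and -0.03. Complexes III and IV were thus above 0 on every array, but under median centring their medians turned to -0.01 and -0.03.

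Several probes were printed for 29 of the genes, and the brightest stood for the gene. The 39 further probes that were above background gave the same direction as the chosen probe in 32 cases and the opposite one in 7. The median difference between a further and the chosen probe was 0.019 on the log2 scale. The largest was 0.23, for Ndufb11, an accessory subunit of complex I, named here for that difference after its values were seen. Its chosen probe was at 0.08 ± 0.09 and did not pass, while its further, weaker probe was at -0.14 ± 0.05 with a limma adjusted p of 0.041 over all probes. Cox7a2l, a complex IV gene also named after its values were seen, did not pass with its chosen probe (0.15 ± 0.12, adjusted p of 0.076), while both its further probes were higher (0.16 ± 0.11 and 0.16 ± 0.09, adjusted p of 0.046 and 0.048).

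The 60-base probes of the 82 genes lie on 19 chromosomes and have a median GC content of 43.3%, where the median of all gene probes is 41.7%. No probe sequence was shared with another gene name. For the genes with the largest fall and the largest rise in complex I and in complex IV, the central bases 16 to 45 of the probe are given, as the letters to which the RNA hybridised in part. No annotation was used to assign them to a transcript. The Ndufa11 probe lies at chr17:56857241-56857300 (plus strand), the Ndufa6 probe at chr15:82181444-82181503 (minus strand), the Cox4i2 probe at chr2:152590711-152590770 (plus strand) and the Cox8b probe at chr7:148084852-148084911 (minus strand), all in mm9 coordinates of the files.
Ndufa11: gctaggtatggcgatggtgaagcggttctt
Ndufa6: gacgggataaagtccgagaaatgttcatga
Cox4i2: actcccttctccaataaaagcagcctgctt
Cox8b: cgcagcatgaagttgcacatccctgagaga

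The promoters of the genes share sequence features that the gene names did not select. RefSeq windows of 300 bases (250 before and 50 after the start, GRCm38.p6) were found for 69 of the 82 genes, 75 windows in all. The NRF1 motif (GCGCA, any base and GCGC), searched like the others on both strands, was present in 24.0% of these windows and in 4.60% of all 32851 windows. The ETS motif CCGGAAG, which GABP binds, was in 21.3% and 8.86%, and the YY1 motif AAGATGGC in 12 of the 75 windows and in 2.75% of all. The TATA motif TATAAA was in 8 of the 75 windows and in 13.6% of all. The TCF/LEF motif CTTTGAT, the element of WNT-responsive promoters, was in 1 of the 75 windows (1.33%) and in 3.73% of all windows. NRF1, GABP and YY1 are known regulators of respiratory genes. The windows of the subunit genes were richer in GC (median 57.3%, against 52.7%), and the base composition was not matched, so that these shares are a description.

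Genes with an NRF1 motif went in either direction or in none. Stretches of 30 bases around the motif are given for a gene that fell, a gene that rose and 2 genes that did not pass, with the letters of the motif in capitals. They lie at chr17:56717692-56717721 (plus strand) for Ndufa11, at chr5:115349101-115349130 (minus strand) for Cox6a1, at chr13:74350319-74350348 (minus strand) for Sdha and at chr15:102671070-102671099 (minus strand) for Atp5g2, in GRCm38.p6.
Ndufa11: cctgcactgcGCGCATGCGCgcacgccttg
Cox6a1: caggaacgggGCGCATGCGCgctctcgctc
Sdha: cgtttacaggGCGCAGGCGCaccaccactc
Atp5g2: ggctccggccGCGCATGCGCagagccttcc

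Other genes of mitochondrial respiration were counted on lists of their own. Of the 10 subunits encoded in mitochondrial DNA, 0 passed the limma test in either direction, and 2 had an unadjusted p under 0.05. Their median log2 ratio was -0.03, with array medians of 0.08, 0.04, -0.01 and -0.18. Of cytochrome c, cytochrome c1 and 6 further genes that the name rule leaves out, 0 of 8 passed, with means from -0.10 (Cycs, cytochrome c) to 0.08 (Ndufa4l2) and 1 unadjusted p under 0.05. Of 18 genes of the citric acid cycle and pyruvate dehydrogenase, Dlst, a subunit of the oxoglutarate dehydrogenase complex, was lower (-0.14 ± 0.05) and Suclg2, a subunit of succinyl-CoA ligase, was higher (0.16 ± 0.10). This is 11.1% of the 18, beside 33.1% of all genes. The subunit genes of the nucleus and of the mitochondrial DNA both gave medians near 0 after loess. Loess centres the ratios at each signal level, so that a median near 0 among bright genes is partly set by it. Under median centring the nuclear subunit genes were at -0.05, and the array medians of the mitochondrial ones differed in sign.

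Of 36 factors that assemble the complexes, 8 were lower and 2 higher, 27.8% in all, beside 33.1% of all genes. By direction, 22.2% were lower, beside 15.0% of all genes, and 5.56% higher, beside 18.1%. The largest changes were those of Ndufaf4, a complex I assembly factor (-0.26 ± 0.05, limma adjusted p of 0.0039), of Cox10, which makes haem A for complex IV (-0.23 ± 0.19, 0.015), and of Ttc19, a complex III factor (0.23 ± 0.07, 0.0084). Of 77 mitochondrial ribosomal proteins, which translate the subunits encoded in mitochondrial DNA, 8 were lower and 0 higher. The share lower was 10.4%, below the 15.0% of all genes that were lower. The median of the 77 was -0.05, with 58 genes below 0, and Mrps2 (-0.21 ± 0.05), Mrpl13 (-0.19 ± 0.07) and Mrps11 (-0.17 ± 0.11) fell most. Of 14 carriers and import proteins 3 were lower (21.4%, beside 15.0% of all genes) and 0 higher. The 3 were Timm23 (-0.27 ± 0.05), Slc25a5, an ADP/ATP carrier (-0.14 ± 0.05), and Timm50 (-0.12 ± 0.14).

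Of 14 regulators of mitochondrial biogenesis 3 were higher and 2 lower, 35.7% in all beside 33.1% of all genes. Their median was -0.05, with 9 of the 14 below 0. Ppargc1a, the coactivator PGC-1 alpha, had log2 ratios of 0.23, 0.54, 0.51 and 0.40, with a mean of 0.42 ± 0.14 (SD, n = 4) and a limma adjusted p of 0.0031. Its relative Ppargc1b rose by 0.28 ± 0.14 and Esrra, a nuclear receptor that works with both, by 0.27 ± 0.08. All 3 were above 0 on all 4 arrays. The 2 lower genes, named after their values were seen, were Pprc1, another coactivator of the family (-0.26 ± 0.18, limma adjusted p of 0.016), and Peo1, the mitochondrial DNA helicase Twinkle (-0.19 ± 0.12, 0.039). These coactivators are known to raise the transcription of respiratory genes. A link between their RNA and that of the subunit genes (median 0.01) was not tested. Of 19 glycolytic genes 3 were lower and 5 higher, 42.1% in all beside 33.1% of all genes. Aldoc, an aldolase, rose by 0.49 ± 0.11, Pdk1, a kinase that inhibits pyruvate dehydrogenase, rose by 0.27 ± 0.09, and Pfkp, a phosphofructokinase, fell by 0.47 ± 0.26.

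**Figure D3:**
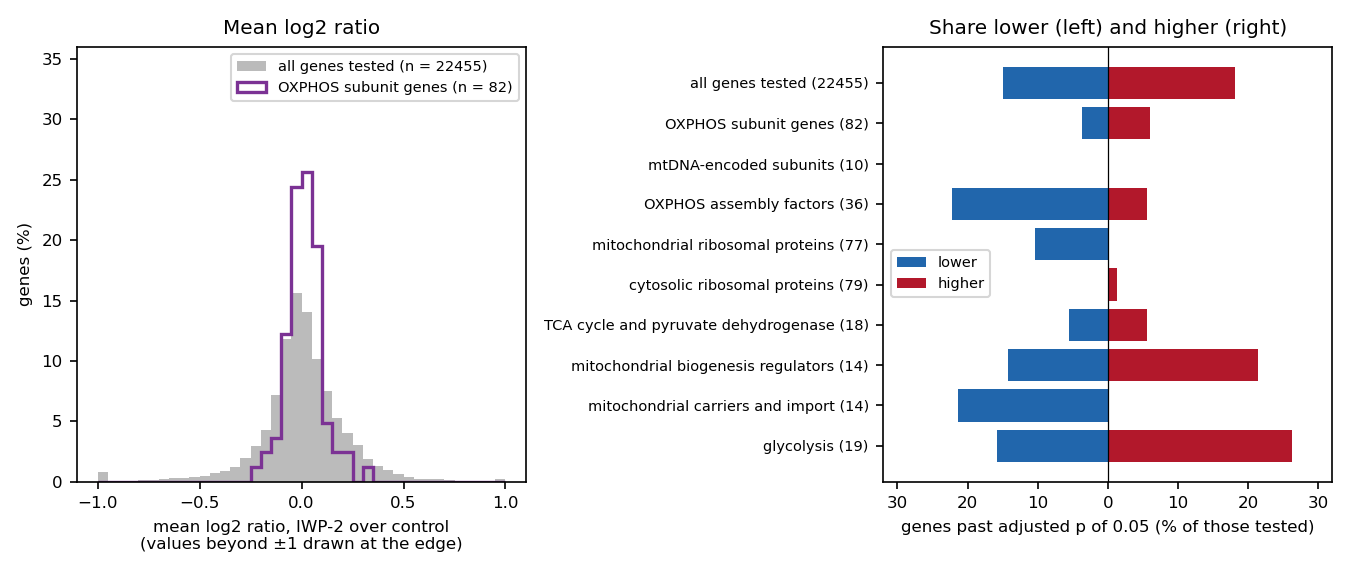
Left, distribution of the mean log2 ratio (x axis) as percent of genes (y axis) for all 22455 genes tested (grey) and the 82 subunit genes (line). Right, percent of each list that was lower (blue) or higher (red) at an adjusted p of 0.05, with the number tested in brackets. The subunit genes form a narrower peak, with 9.76% past the threshold beside 33.1% of all genes.

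The spread among the subunit genes followed the dye order in part. Across the 82 genes, the log2 ratios correlated between arrays with Pearson r of 0.70 for arrays 1 and 3 and 0.66 for arrays 2 and 4, which share a dye order, and of 0.20 to 0.50 for the pairs that do not. For all genes tested, r was 0.80 and 0.83 in the pairs of the same order and 0.62 to 0.74 in the others. These are correlations across genes, which share the labelled RNA and the slide and are not independent. The dye term had an unadjusted p under 0.05 for 4 of the 82 genes and for 18.9% of all genes, and 0 genes passed after adjustment. Cytosolic ribosomal proteins, of which 1 of 79 passed (Rpl10, 0.17 ± 0.35, below 0 on arrays 2 and 4), had array medians that alternated with the dye order, at 0.13, -0.15, 0.17 and -0.17. The 8 called subunit genes had the same direction in both dye orders.

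**Figure D4:**
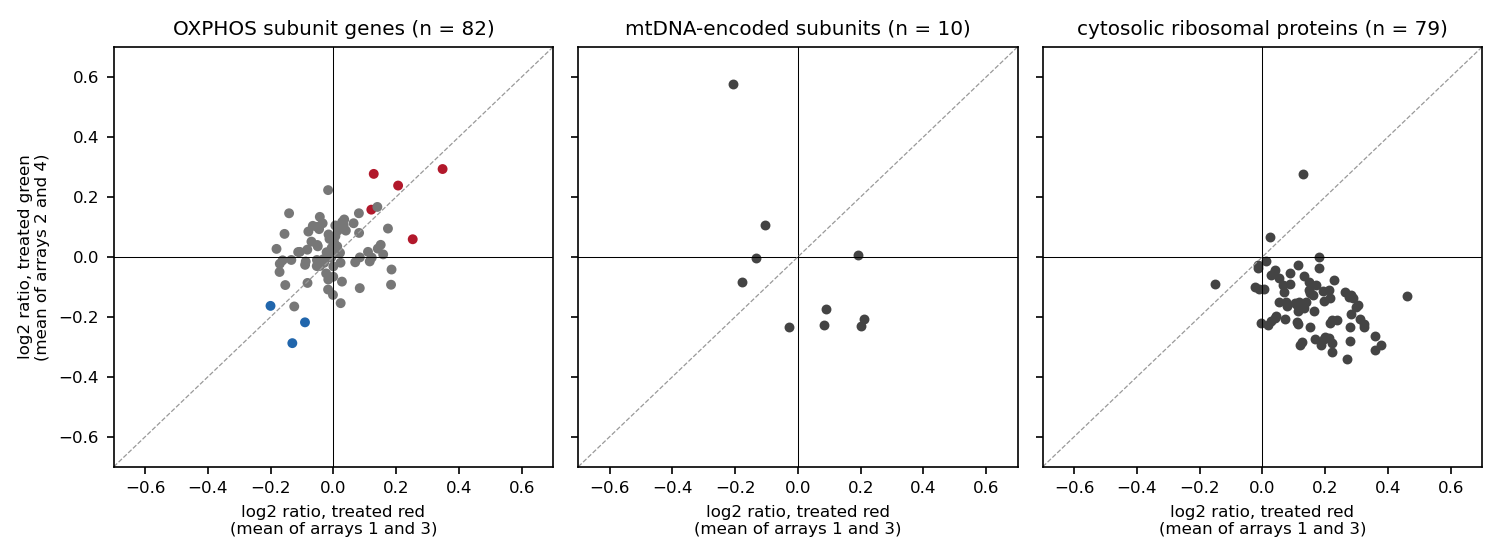
Mean log2 ratio on the arrays with the treated RNA in red (x axis) against that on the arrays with it in green (y axis), 1 point per gene, for 3 lists. In the left panel the 3 lower genes are blue and the 5 higher genes red. The called subunit genes lie on the same side of 0 in both dye orders, at unequal distances (Uqcrh at 0.25 in red and 0.06 in green, Ndufa11 at -0.13 and -0.29), whereas most cytosolic ribosomal protein genes lie to the right of and below 0.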

How the data were processed

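The authors labelled amplified RNA with AlexaFluor555 or AlexaFluor647 and scanned the arrays with Agilent Feature Extraction 10.7.3.1. The deposited files give an intensity per spot and channel and a log10 ratio, which served to check direction. The deposited series table gives a signed fold value per probe, a rounded score of unstated normalisation, used as an alternative. Raw mean intensities were corrected with normexp (offset 50) and loess (span 0.3) in limma 3.58.1 (R 4.3.3). Control and outlier spots (3.01% to 3.38%) were left out, and the 4 spots of a probe averaged. A probe passed if more than 0.5 of its spots were well above background in all arrays of 1 group. The brightest probe stood for a gene. The log2 ratios were fitted with a dye term and adjusted by Benjamini-Hochberg. The number of arrays limits the precision. On simulated data the fit recovered 12% of genes changed by 0.25 on the log2 scale, 64% at 0.5, 88% at 1 and 100% at 2. Changes of 0.25 were thus mostly missed in the simulation. It changed only 200 of 22455 genes, whereas 33.1% of all genes passed in the data, so that its adjusted threshold was harder to reach. These shares therefore do not give the sensitivity for the subunit genes, of which Ndufs8 passed at -0.15. A gene that did not pass is still not shown to be unchanged. The members and lists were chosen with earlier results of these data known. Named are all members past the threshold, the extremes of each complex, isoform pairs, core subunits of complex I, all Sdh genes, Atp5a1 and Atp5b, and at most 3 genes of other lists (4 for WNT targets). Levels were not compared between probes. A core subunit gene of complex I is counted but not reported singly here. No annotation of mm9 was used. Alternatives were other background, scaling, model, probe and filter choices and the omission of each array.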

Additional observations from a re-analysis of the deposited data

Results flagged for a closer look

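For 1 gene a single array stood apart. The log2 ratio of Sdha, the flavoprotein of complex II, was 0.20 on array 4, while arrays 1 to 3 lay close together at 0.08, 0.09 and 0.09. The gap took up 0.89 of the range of the 4 arrays. Among the 41 values checked in this way chance gives about 2, since about 1 in 20 groups is marked.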

How the results depend on the processing

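The values were recomputed under 16 alternatives, or 15 for weak probes such as those of Cox8b and Cox4i2, which the restriction to brighter genes leaves out. The count of 5 genes that rose moved to 3 with a normexp offset of 10, to 2 with median centring, to 3 without the dye term, to 1 with the 8 channels as separate samples and to 1 with the series table, and was 2 to 5 when 1 array was left out. The count of 3 genes that fell moved to 8 with the series table and was 0 (without array 3) to 3 when 1 array was left out. In both directions the share of subunit genes stayed below that of all genes, except for the genes that fell with the series table (9.76%, beside 9.13% of all genes). Median centring moved the median log2 ratio of the subunit genes to -0.0517, and that of complexes I to V to -0.0637, -0.0708, -0.0150, -0.0333 and -0.0542. The complex V median was -0.0344 with the series table. Leaving out 1 array gave medians from -0.0223 to 0.0158 for complex V and from 0.0239 to 0.0571 for complex IV. The cause of these shifts was not tested. No value reversed its sign among called genes. All 4 arrays lie on 1 slide with 1 scan, so that a block by slide or scan was not run. The replicate number names an array. The main fit uses the ratio of treated to control RNA on each array and is thus already paired. The alternative with the 8 channels as separate samples leaves out this pairing. The offset limits the ratios of weak probes.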
